A study of Rattus norvegicus with 36 samples.

Results

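Genes of the cell cycle and of mitosis were examined in rat thyroid glands after injection of iodine-131 (131I). The set holds 45 genes, 15 that act in S phase, when DNA is copied, and 30 that act in mitosis, when the copied chromosomes are parted. It was chosen by gene symbol, through the accession that the array gives for each probe. Of the 45 genes, 39 had a named probe, 14 for S phase and 25 for mitosis, out of 15154 genes named over 17998 of 30367 probes. No named probe was found for Mcm5, Melk, Bub1b, Cenpe, Mki67 and Top2a, so the common proliferation markers Mki67 and Top2a were not measured here. Each gene is given by its probe with the highest mean over the 36 arrays.

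Gene expression was measured with 1-colour Agilent arrays, 1 array for each of 36 adult male Sprague Dawley rats. Thyroid tissue was taken 24 h after intravenous injection of 131I, with 4 rats at each of 8 activities. The lower activities were 9, 88, 170 and 260 kBq, and the higher ones were 340, 760, 1300 and 4700 kBq. The controls were 4 mock-treated rats, and no group carried an altered gene. The rats were injected in order of activity with the controls last, so activity and order of injection cannot be told apart.

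Cells enter the cell cycle when E2F transcription factors switch on the genes that load and copy DNA, among them the minichromosome maintenance (Mcm) helicase and the enzymes that make nucleotides. Later, cyclin A and cyclin B with the kinase Cdk1 drive mitosis, in which kinetochores, motor proteins and the spindle checkpoint part the chromosomes. Follicular cells of the adult thyroid divide seldom, while lymphocyte precursors and the basal layer of squamous epithelium divide often.

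Promoter sequences are shown because they hold letters that are known from the promoters of S phase genes and of mitosis genes. RefSeq promoters of the GRCr8 build, from 250 bases before to 50 bases after the start of the gene, were held for 35 of the 45 genes, 10 for S phase and 25 for mitosis. The E2F letters (TTCCCGC or TTCGCGC or TTGCCGC or TTGGCGC) were found on either strand in 7 of 10 S phase promoters (70%), in 4 of 25 mitosis promoters (16%) and in 9.52% of all 33469 promoters. The cell cycle homology region (CHR), TTTGAA or else TTCGAA, was found in 2 of 10 S phase promoters (20%), in 17 of 25 mitosis promoters (68%) and in 19.7% of all promoters. The CCAAT box, CCAAT, was found in 5 of 10 (50%), in 17 of 25 (68%) and in 37.5%. Matches of these patterns can overlap each other and were read as letters only. Below are the 150 bases before the start of 3 S phase genes of the helicase and of 3 mitosis genes, 5′ to 3′ on the strand of the gene, with every match that lies wholly within them in capitals. A further E2F match of Mcm6 begins in the last of these bases and runs past the start, so it is not marked. Mcm2 lies on the minus strand at chr4:122918095-122918244, Mcm6 on the minus strand at chr13:42404353-42404502 and Mcm7 on the minus strand at chr12:22163179-22163328. Ccnb2, cyclin B2, lies on the minus strand at chr8:79981659-79981808, Cdc20, which opens the way to anaphase, on the minus strand at chr5:137255800-137255949 and Prc1, which bundles the midzone of the spindle, on the plus strand at chr1:143659331-143659480.
Mcm2: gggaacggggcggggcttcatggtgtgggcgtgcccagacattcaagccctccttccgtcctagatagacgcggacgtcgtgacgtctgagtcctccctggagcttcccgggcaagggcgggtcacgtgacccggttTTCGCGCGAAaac
Mcm6: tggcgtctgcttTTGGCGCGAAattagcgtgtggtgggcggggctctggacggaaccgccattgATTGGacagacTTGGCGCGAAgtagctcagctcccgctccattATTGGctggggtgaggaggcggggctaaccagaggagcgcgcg
Mcm7: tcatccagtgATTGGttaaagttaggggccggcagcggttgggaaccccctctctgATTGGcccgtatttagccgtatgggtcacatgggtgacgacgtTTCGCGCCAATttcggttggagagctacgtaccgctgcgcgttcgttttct
Ccnb2: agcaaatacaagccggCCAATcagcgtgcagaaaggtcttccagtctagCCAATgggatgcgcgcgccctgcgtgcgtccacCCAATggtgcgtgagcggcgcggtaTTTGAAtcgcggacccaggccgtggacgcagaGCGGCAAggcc
Cdc20: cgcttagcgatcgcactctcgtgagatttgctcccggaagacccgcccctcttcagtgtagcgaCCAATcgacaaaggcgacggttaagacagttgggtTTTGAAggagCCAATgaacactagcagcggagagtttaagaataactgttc
Prc1: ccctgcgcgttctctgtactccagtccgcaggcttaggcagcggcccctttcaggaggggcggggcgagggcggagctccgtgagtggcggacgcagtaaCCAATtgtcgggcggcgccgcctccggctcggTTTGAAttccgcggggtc

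Some arrays stood apart by their tissue markers. Values are log2 of the processed signal minus the 75th percentile of the array. A list mean is the mean of the members of a list in a rat, each gene centred on its mean over the 36 arrays. The list of lymphoid cells and thymocytes, of which 12 of 15 markers had a probe and Cd3d, a chain of the T cell receptor complex, was the brightest, had a mean of 7.46 in 9 kBq rat 2, 7.07 in 88 kBq rat 1 and 6.61 in control rat 2. The other 33 rats did not exceed 0.81. The list of squamous epithelium, of which 10 of 12 markers had a probe and Tp63, a transcription factor of basal cells, was the brightest, had a mean between 4.20 and 5.99 in 11 rats and did not exceed 2.59 in the others. Tp63 itself varied little, from 1.002 to 2.45 over the 36 arrays, so other markers of the list set these 11 rats apart. These 11 squamous-rich arrays were rats 3 and 4 at 9 kBq, rat 2 at 88 kBq, rat 4 at 170 kBq, rats 3 and 4 at 260 kBq, rats 1 and 3 at 340 kBq, rats 1 and 2 at 760 kBq and control rat 3. No array at 1300 or 4700 kBq was of either kind, which left 22 other arrays, with 1 to 4 in each group and 2 among the controls. Both limits, a list mean over 4, were chosen after these values were seen. Every marker with a probe was well above background on at least 1 array.

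The labelled tissue was checked with 10 markers of thyroid follicular cells, all of which had a probe, with thyroglobulin (Tg), the protein from which thyroid hormone is made, the brightest. The Tg probe was well above background on all 36 arrays, but it ranged from −4.51 to 7.48 with a median of 6.79, and 11 arrays lay more than 4 below that median. The follicular list mean had a median of 3.14 on the 22 other arrays and −3.81 on the squamous-rich arrays. It was more than 4 below the median array on 13 arrays, 3 at 9 kBq, 3 at 340 kBq, 2 at 1300 kBq, none at 4700 kBq and 1 in each other group. In such bulk tissue, fewer cells of a type and less RNA per cell cannot be told apart.

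The S phase and the mitosis genes varied together from rat to rat, and the rats that were high were those of the lymphoid-rich and squamous-rich arrays. The S phase mean was 2.16 to 2.86 on the 3 lymphoid-rich arrays, −0.54 to 1.71 on the 11 squamous-rich arrays and −1.14 to −0.26 on the 22 others. The mitosis mean was 2.64 to 3.34, −0.52 to 2.58 and −2.15 to −0.39 on the same kinds of array. The lymphoid-rich arrays thus overlapped with neither other kind, and of the squamous-rich arrays control rat 3 alone lay within the range of the others in both lists. These differences are a description, since the kinds of array were defined from these data.

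**Figure D1:**
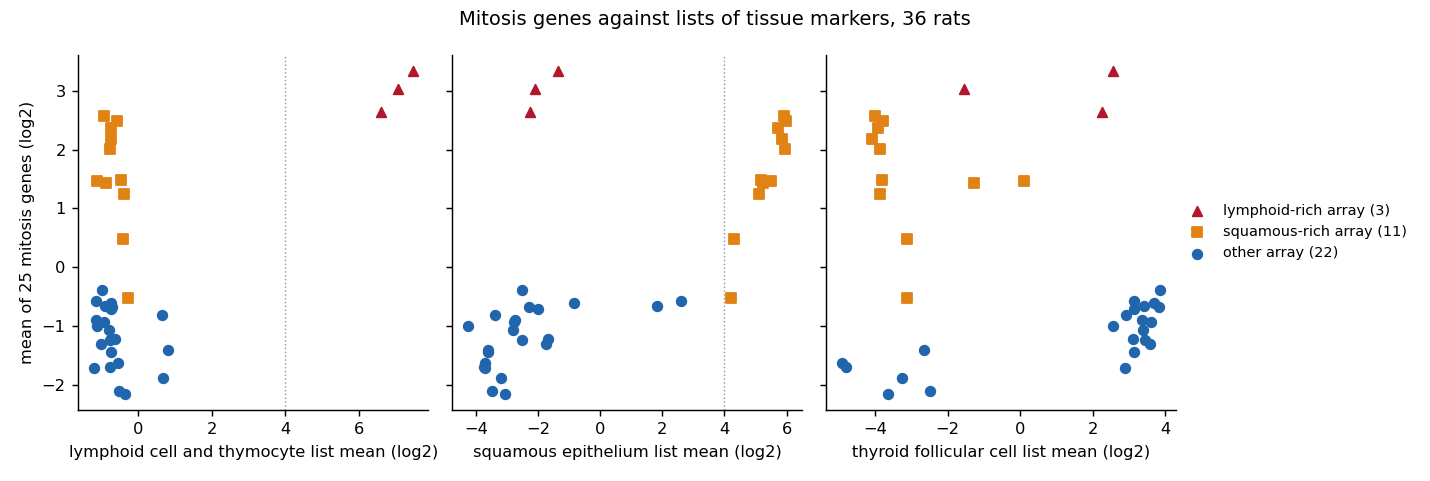
Mean of the 25 mitosis genes (y axis, log2, centred per gene) against the mean of the lymphoid cell and thymocyte, squamous epithelium and thyroid follicular cell marker lists (x axes, log2, centred per gene). Each point is 1 of 36 rats, shape and colour give the kind of array, and dotted lines mark the limit of 4; the 3 lymphoid-rich and 10 of the 11 squamous-rich arrays lie above the 22 others.

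Member by member, the median on the lymphoid-rich arrays was above the median on the other arrays for 14 of 14 S phase genes, by 1.87 to 5.86 with a median of 3.20, and for 25 of 25 mitosis genes, by 1.56 to 6.32 with a median of 4.33. On the squamous-rich arrays it was above for 14 of 14 S phase genes, by 0.07 to 3.84 with a median of 1.07, and for 24 of 25 mitosis genes, with a median of 3.07. Rrm2, a subunit of the enzyme that makes deoxynucleotides, had a median of 3.78 on the lymphoid-rich, 1.76 on the squamous-rich and −2.08 on the other arrays. Tpx2, which activates Aurora kinase A on the spindle, was the exception, with medians of −0.58, −2.21 and −2.13.

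Rats of 1 group differed more in these genes than in most. The SD between rats of a group had a median of 1.13 over the S phase genes and 1.76 over the mitosis genes, against 0.67 over all probes, and it was above 0.67 for 13 of 14 and 25 of 25 members. An SD over 1.5 was found for 22 of 39 members and 8.28% of all probes. Over the 36 arrays, which share the tissue differences above, the correlation of a member with the mean of the other members had a median of 0.947. It was highest for Nuf2, of the kinetochore, at 0.992, and over 0.7 for 37 of 39 members. Tyms, thymidylate synthase, at 0.464 and Tpx2 at 0.102 were the exceptions.

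**Figure D2:**
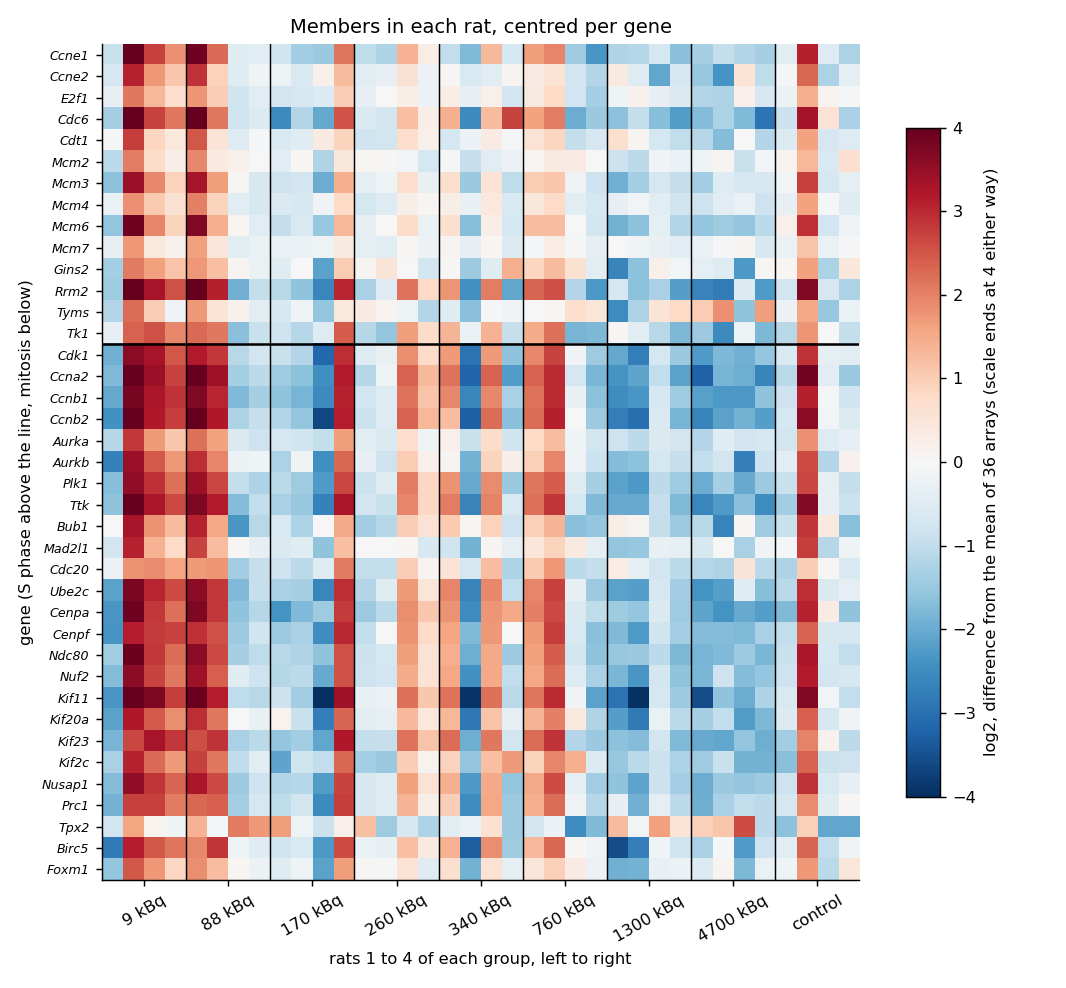
Value of each of the 39 members (rows, S phase above the black line and mitosis below) in each of the 36 rats (columns, 4 per group), as the difference from the mean of the gene over all arrays in log2, with red above and blue below that mean. Whole columns are red or blue together in all rows but a few, such as Tpx2 and Tyms, and the columns at 1300 and 4700 kBq are mostly blue.

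Group by group, the S phase mean was highest at 9 kBq, 1.18 ± 1.57 (SD, n = 4), and lowest at 4700 kBq, −0.92 ± 0.14 (SD, n = 4), with 0.22 ± 1.30 (SD, n = 4) in the controls. The mitosis mean was 1.56 ± 2.24 at 9 kBq, 0.93 ± 2.05 at 88 kBq, −1.33 ± 0.57 at 1300 kBq, −1.47 ± 0.18 at 4700 kBq and 0.13 ± 1.68 in the controls. Between these, at 170 to 760 kBq, the group means of the mitosis genes lay between −0.42 and 0.51.

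At 9 kBq the mitosis means of rats 1 to 4 were −1.70, 3.34, 2.58 and 2.01. At 4700 kBq they were −1.73, −1.32, −1.41 and −1.45, and in the controls −0.90, 2.64, −0.52 and −0.68. The 4 rats at 4700 kBq lay below all controls, while the 4 rats at 9 kBq lay on both sides of them. The high rats at 9 kBq were 1 lymphoid-rich and 2 squamous-rich arrays, and the high control was the lymphoid-rich one.

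At 88 kBq the mitosis means were 3.03, 2.36, −0.94 and −0.71, of which the first was the lymphoid-rich and the second the squamous-rich array. At 1300 kBq they were −1.62, −1.89, −0.58 and −1.22, with rat 3 among the controls and the others below them. The S phase means were −0.89, 2.86, 1.71 and 1.03 at 9 kBq, −1.05, −1.0, −0.72 and −0.91 at 4700 kBq and −0.32, 2.16, −0.54 and −0.43 in the controls. They gave the same picture, with the rats at 4700 kBq below all controls.

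The other marker lists were set side by side for the controls and the rats at 4700 kBq. The parathyroid list mean, over 4 of 4 markers with parathyroid hormone, Pth, the brightest, was 4.50, 4.99, −0.82 and 3.14 at 4700 kBq and −1.76, 3.68, −3.99 and 0.73 in the controls. Its mean was 3.29 above that of the controls, more than for any other marker list, and the groups overlapped. The erythroid list mean was 0.38, 0.59, 2.20 and 0.62 at 4700 kBq and −0.37, −0.69, −0.26 and −0.03 in the controls, which did not overlap. Of its 8 markers 6 had a probe, with the haemoglobin gene Hbb the brightest. The cartilage list mean, over 6 of 8 markers with Col2a1 the brightest, was −2.66, −2.11, −1.09 and −2.14 at 4700 kBq and −2.75, 0.25, 3.61 and −0.60 in the controls, where rat 1 was as low. The mean at 4700 kBq minus that of the controls was 1.38 for C cells, −1.40 for skeletal muscle, −0.64 for macrophages, −0.39 for adipose tissue, 0.17 for follicular cells and 0.07 for endothelium, beside −1.66 for lymphoid cells and −2.39 for squamous epithelium. The part of these tissues in the values of the cell cycle genes was not tested.

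**Figure D3:**
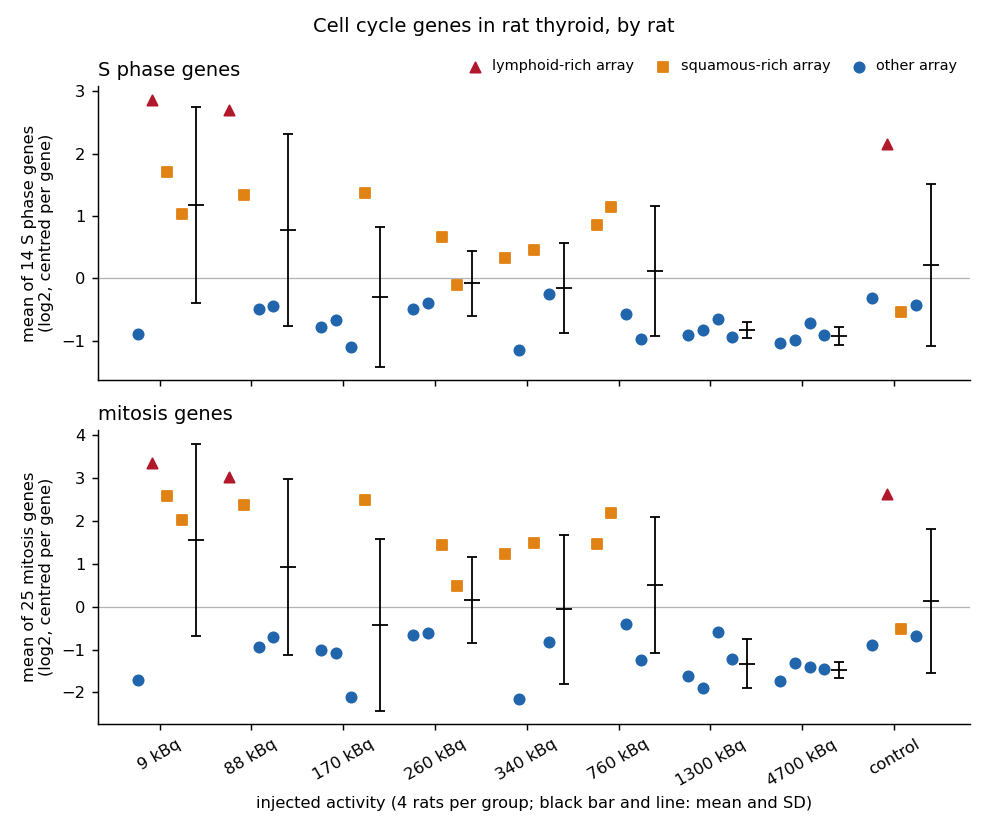
Mean of the 14 S phase genes (top) and of the 25 mitosis genes (bottom) in each rat (y axis, log2, centred per gene) by injected activity. Points are rats, their shape gives the kind of array, and the black bar with its line is the mean and SD of the 4 rats; the 4 rats at 4700 kBq lie between −1.73 and −1.32 for mitosis, below all 4 controls.

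Of the 22 other arrays alone, the mitosis mean was −0.79 ± 0.15 (SD, n = 2) in the controls, −1.33 ± 0.57 (SD, n = 4) at 1300 kBq and −1.47 ± 0.18 (SD, n = 4) at 4700 kBq. It was −1.70 (n = 1) at 9 kBq, −0.83 ± 0.16 (SD, n = 2) at 88 kBq, −1.39 ± 0.62 (SD, n = 3) at 170 kBq, −0.64 ± 0.04 (SD, n = 2) at 260 kBq, −1.49 ± 0.94 (SD, n = 2) at 340 kBq and −0.82 ± 0.60 (SD, n = 2) at 760 kBq. On these arrays the group means had no order by activity, and the 9 kBq rat lay beside those at 4700 kBq.

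The mitosis genes swung further than the S phase genes. Of the 54 pairs of rats within a group, 45 were in the same order in both lists, but the SD between rats of a group, pooled over groups, was 1.60 for the mitosis mean and 1.04 for the S phase mean. The S phase mean minus the mitosis mean was low where both were high, −0.48 to −0.32 on the lymphoid-rich, −1.12 to −0.02 on the squamous-rich and −0.18 to 1.06 on the other arrays. By group it was −0.38 ± 0.82 at 9 kBq, 0.50 ± 0.49 at 1300 kBq, 0.55 ± 0.17 at 4700 kBq and 0.08 ± 0.45 in the controls (SD, n = 4 each), a spread that overlapped between these groups. On the other arrays alone the difference was 0.42 ± 0.23 (SD, n = 2) in the controls and 0.55 ± 0.17 (SD, n = 4) at 4700 kBq.

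For each activity against the controls, limma called no member regulated, which took a Benjamini-Hochberg adjusted p below 0.01 together with a 1.5-fold change, and it called no other probe either, a background of 0%. Since all 8 comparisons use the same 4 controls, of which rat 2 was high, their values are not independent. The p-values measure only the spread between these rats. At an unadjusted p under 0.05 the members called were Tpx2, higher at 88 kBq, where 2.99% of all probes were called higher, at 1300 kBq, where 3.84% were, and at 4700 kBq, where 1.28% were, and Mcm6, lower at 4700 kBq, where 0.372% of all probes were called lower (0.372% at 88 kBq and 0.339% at 1300 kBq). No member was called at 9 kBq (2.77% of all probes higher, 0.454% lower), 170 kBq (2.16% and 0.201%), 260 kBq (0.787% and 0.336%), 340 kBq (13.2% and 0.438%) or 760 kBq (1.5% and 0.148%).

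The side of the controls on which the members lay differed between groups. At 9 kBq the median log2 ratio was 0.76 for S phase and 1.47 for mitosis, beside 0.07 for all probes, with 39 of 39 members above 0. Single rats moved these medians by over 1.5 times. They were 0.256 and 0.888 without the lymphoid-rich 9 kBq rat 2, 1.55 and 2.63 without 9 kBq rat 1, and 1.55 and 2.34 without the lymphoid-rich control rat 2. At 88 kBq the medians were 0.63 and 0.79 beside 0.09, again with 39 of 39 above 0. At 170 kBq they were −0.59 and −0.63 beside 0.12, with 3 of 14 S phase and 2 of 25 mitosis genes above 0.

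At 260 kBq the medians were −0.37 for S phase and −0.00 for mitosis beside 0.03 for all probes, at 340 kBq −0.40 and −0.31 beside 0.31, and at 760 kBq −0.14 and 0.39 beside 0.08. Above 0 were 2 of 14 S phase and 12 of 25 mitosis genes at 260 kBq, 2 and 7 at 340 kBq, and 4 and 22 at 760 kBq, so that the lists lay on different sides of the controls at 760 kBq, though not without the squamous-rich arrays, where both medians were below 0 (−1.30 and −1.26). At 1300 kBq they were −0.92 and −1.64 beside 0.22, and at 4700 kBq −1.13 and −1.81 beside 0.09. Above 0 were 1 of 39 members at 1300 kBq, Tpx2, and 2 of 39 at 4700 kBq, Tpx2 and Tyms. Without rat 1, the lymphoid-rich array, the medians at 88 kBq were −0.129 for S phase and 0.0194 for mitosis, and without control rat 2 they were 1.19 and 1.6. At 1300 kBq they were −0.307 and −0.819 without control rat 2, and at 4700 kBq −0.486 and −0.945.

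**Figure D4:**
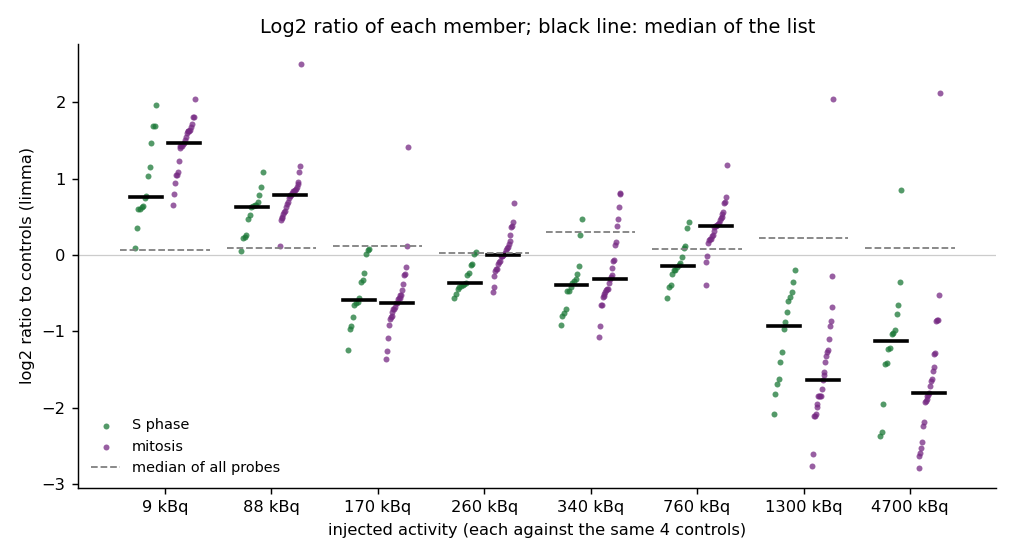
Log2 ratio to the same 4 controls (y axis, limma) of each S phase gene (green) and each mitosis gene (purple) at each injected activity (x axis), with the median of each list as a black line and the median of all probes as a dashed line. The mitosis median is 1.47 at 9 kBq and −1.81 at 4700 kBq, and the purple point far above the rest at 88, 170, 1300 and 4700 kBq is Tpx2.

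Left out of the fit together, the lymphoid-rich and squamous-rich arrays took the medians at 9 kBq from 0.76 to −0.32 for S phase and from 1.47 to −1.0 for mitosis, with 1 rat left in that group, assumed to vary like the rats of the others. At 88 kBq they moved from 0.63 to −0.16 and from 0.79 to −0.21. At 4700 kBq they moved from −1.13 to −0.58 and from −1.81 to −0.80, with 4 rats against 2 controls. At 1300 kBq they moved from −0.92 to −0.39 and from −1.64 to −0.81. Without the lymphoid-rich arrays alone, control rat 2 among them, the medians were above 0 at 170 kBq (0.13 and 0.22), 260 kBq (0.38 and 0.87), 340 kBq (0.17 and 0.57) and 760 kBq (0.61 and 1.28), and −0.49 and −0.95 at 4700 kBq. Without the squamous-rich arrays alone they were 0.50 and 0.36 at 9 kBq, 0.09 and −0.02 at 88 kBq, −1.18 and −1.86 at 170 kBq, −0.97 and −1.02 at 260 kBq, −0.90 and −2.12 at 340 kBq, −1.30 and −1.26 at 760 kBq, −1.33 and −2.01 at 1300 kBq and −1.46 and −2.05 at 4700 kBq.

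With the lymphoid and squamous lists as covariates in place of leaving arrays out, the medians at 4700 kBq were −0.205 for S phase and −0.0886 for mitosis. With the lymphoid, squamous, follicular and parathyroid lists as covariates they were 0.132 and 0.457, on the other side of the controls. At 1300 kBq they were −0.302 and −0.694 with both lists and −0.0185 and −0.0586 with the 4 lists, and at 9 kBq 0.379 and 0.503 with both lists and 0.86 and 1.08 with the 4 lists. At 88 kBq, where they were below 0 without both kinds of array, they were 0.56 and 0.534 with both lists and 0.987 and 1.09 with the 4 lists.

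Among the S phase genes, the G1/S regulators Ccne1, Ccne2 (cyclin E, which starts replication) and E2f1 had a median log2 ratio of 1.15 at 9 kBq and −1.23 at 4700 kBq. The 8 measured genes of replication licensing and the fork, which load and run the helicase, had 0.70 and −0.999. The 3 genes of nucleotide supply had 1.69 and −1.43.

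Mcm6, a subunit of the helicase, whose promoter held 4 overlapping E2F matches in the bases shown, had values of −5.69, −5.56, −5.72 and −5.19 at 4700 kBq. In the controls they were −3.92, −1.20, −4.90 and −4.34. All 4 irradiated rats lay below all 4 controls, and the highest control was the lymphoid-rich array. The log2 ratio was −1.95 ± 0.90 (SE, limma p = 0.0385, adjusted p = 0.9999), and a two-sided exact permutation test gave 0.0286, the smallest p that 4 against 4 rats can give. At 1300 kBq the values were −6.02, −5.78, −4.52 and −5.31, with 3 of 4 rats below all controls, and the log2 ratio was −1.82 ± 0.90 (SE, limma p = 0.0526, exact permutation p = 0.0571). That ratio was −1.02 ± 0.70 (SE) without the lymphoid-rich arrays and −1.28 ± 0.41 (SE) without both kinds of array. Without the lymphoid-rich arrays the log2 ratio at 4700 kBq was −1.15 ± 0.70 (SE) and no longer passed an unadjusted p of 0.05, and without both kinds it was −1.41 ± 0.41 (SE) and passed (limma adjusted p = 0.967). With the slide as a block it was −1.78 and with the scan day as a block −1.83, and in neither did it pass. With both marker lists as covariates it was −0.71 and with the 4 tissue lists −0.04, and again it did not pass.

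Mcm2, another subunit of the helicase and a usual marker of proliferation, had values of −1.46, −1.14, −2.13 and −1.35 at 4700 kBq and −1.09, 0.09, −1.86 and −0.57 in the controls, which overlapped. Its log2 ratio was −0.66 ± 0.48 at 4700, −0.66 ± 0.48 at 170, −0.56 ± 0.48 at 260 and −0.80 ± 0.48 at 340 kBq (SE, exact permutation p = 0.143 to 0.257), and it was the S phase gene with the smallest limma p at the last 3 of these. As each rat was left out, the ratio of Mcm2 ran from −0.99 to −0.34 at 170, −0.892 to −0.242 at 260 and −1.14 to −0.486 at 340 kBq. At 340 kBq its values were −1.32, −2.17, −1.68 and −1.47, within the range of the controls but for 1 rat.

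Tk1, thymidine kinase, which salvages thymidine, led the S phase genes at 9 kBq with values of −1.67, 1.02, 1.20 and 0.60, against −2.43, 0.42, −1.35 and −2.28 in the controls. Rats 2, 3 and 4, which were the lymphoid-rich and squamous-rich arrays, lay above all controls, and rat 1 lay among them. The log2 ratio was 1.69 ± 1.02 (SE, limma p = 0.109, exact permutation p = 0.114).

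Cdt1, which loads the helicase, led at 88 kBq, where its values were −3.37, −5.31, −6.37 and −5.90 against −6.40, −4.26, −6.52 and −6.39 in the controls. Only the lymphoid-rich rat 1 lay above all controls, of which 3 of 4 were well above background, and the log2 ratio was 0.66 ± 0.63 (SE, limma p = 0.308, exact permutation p = 0.457). This ratio of Cdt1 ran from 0.0333 to 1.2 as each rat was left out in turn. E2f1, the transcription factor that opens S phase, led at 760 kBq, with values of −2.19, −1.75, −3.31 and −3.93 against −2.79, −1.09, −2.42 and −2.62. Rats 3 and 4 lay below all controls and rats 1 and 2 among them, and the log2 ratio was −0.57 ± 0.55 (SE, limma p = 0.310, exact permutation p = 0.371). For E2f1 the ratio ran from −0.913 to −0.186 as each rat was left out. Cdc6, which works with Cdt1, was not well above background on any array at 1300 or 4700 kBq, and its signal there was lower by at least 3.86-fold and 4.12-fold, a bound set by the lowest signal well above background on each array. Without the lymphoid-rich control rat 2 these bounds were 1.97-fold and 2.11-fold, and without control rat 4 5.75-fold and 6.13-fold at the other end. For Cdc6 limma gave an adjusted p of 0.840 and 0.9999.

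Among the mitosis genes, the cyclins with Cdk1 had the most negative median of any role at 4700 kBq, −2.55, and 1.56 at 9 kBq. The mitotic kinases had −1.72 and 1.34, the kinetochore genes −1.81 and 1.59, the genes of the spindle and cytokinesis −1.68 and 1.44, and those of the spindle checkpoint and anaphase-promoting complex −1.16 and 1.44. Foxm1, the transcription factor that switches on many of these genes, had −0.86 ± 0.77 and 0.65 ± 0.77 (SE, exact permutation p = 0.314 and 0.571).

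All 4 rats at 4700 kBq lay below all 4 controls for 14 of 25 mitosis genes and 1 of 14 S phase genes, where 0.552% of all probes did. They were all of Cdk1, Ccna2, Ccnb1 and Ccnb2, the kinases Plk1 and Ttk, the centromere genes Cenpa, Cenpf and Ndc80, the motors Kif11, Kif20a and Kif23, the spindle proteins Nusap1 and Prc1, and Mcm6. Of these, Cenpa was not well above background on any of the arrays at 4700 kBq, so that its rank there is one among background values, and Ttk and Kif11 were on 2 of 4 arrays and Ccna2 and Ccnb2 on 3 of 4. At 1300 kBq this held for 4 mitosis genes, Cdk1, Plk1, Ndc80 and Nusap1, and for 0.185% of all probes. In the other groups no member did, where 0.248% of all probes did at 9 kBq, 0.195% at 88 kBq, 0.241% at 170 kBq, 0.244% at 260 kBq, 0.304% at 340 kBq and 0.248% at 760 kBq. No member had all 4 rats above all controls in any group, where from 9 to 4700 kBq 1.48%, 1.65%, 0.994%, 0.823%, 4.04%, 1.39%, 1.07% and 0.714% of all probes did. For these genes other than Cenpa each such separation has an exact permutation p of 0.0286, while limma, which uses the spread of all groups, gave p = 0.0742 for Ccnb2 to p = 0.189 for Cenpf at 4700 kBq among the 14.

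Ndc80, which ties microtubules to kinetochores, had values of −5.32, −5.23, −4.92 and −5.29 at 4700 kBq and −4.33, −0.19, −4.14 and −4.44 in the controls. At 9 kBq they were −4.83, 0.46, −0.62 and −1.23. The rats at 4700 kBq lay close together and below every control, while at 9 kBq 1 rat lay above and 1 below all controls. The log2 ratio was −1.92 ± 1.21 at 4700 kBq and 1.72 ± 1.21 at 9 kBq (SE, exact permutation p = 0.0286 and 0.400). The highest control was the lymphoid-rich array, and without both kinds of array the log2 ratio at 4700 kBq was −0.80 ± 0.28 (SE).

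Cdk1, the kinase of mitosis, had values of −3.21, −2.75, −2.89 and −2.49 at 4700 kBq against −1.56, 1.93, −1.34 and −1.39 in the controls, and −3.00, −3.71, −1.65 and −2.44 at 1300 kBq. Both groups lay below every control, with rat 3 at 1300 kBq close to them. Cyclin B2, Ccnb2, had −6.76, −6.23, −5.99 and −6.30 at 4700 kBq against −4.79, −0.49, −4.21 and −4.64. Its log2 ratio of −2.79 ± 1.505 (SE) was the lowest of all members there. Cenpa, the centromere histone, was not well above background on any array at 1300 or 4700 kBq and was well above background on 17 of 36 arrays, the fewest of any member. Its signal was lower by at least 2.16-fold and 3.26-fold, against a control mean in which rat 1 was itself not well above background. Without control rat 2 these bounds were 1.06-fold and 1.60-fold, and without control rat 1 they were 3.25-fold and 4.90-fold. The fit with all arrays gave a limma adjusted p of 0.840 and 0.9999.

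With both kinds of array left out, 7 members were lower at an unadjusted p under 0.05 at 4700 kBq, where 0.81% of all probes were. They were Mcm6, Ndc80, Nusap1, Ccnb1, Ccna2, Ccnb2 and Cdk1, with log2 ratios from −1.60 for Ccnb2 to −0.80 for Ndc80. At 1300 kBq 4 were lower (1.95% of all probes), Mcm6, Mcm2, Mcm3 and Nusap1. At 170 kBq 5 were (0.869%), at 340 kBq 9 (0.748%) and at 760 kBq 2 (0.362%), and at 88 (0.273%) and 260 kBq (0.445%) none. The fit held 3 rats at 170 kBq and 2 each at 88, 260, 340 and 760 kBq. Of those at 340 kBq, rat 4 had 90.95% of probes well above background, where no other array exceeded 78.99%. In this fit Mcm6 was lower at 170, 340, 1300 and 4700 kBq, with log2 ratios from −1.41 to −1.02. Its log2 ratio was −1.57 at 9 kBq, where 1 rat was left and no call is given. The smallest adjusted p among these was 0.187 by limma, for Nusap1 at 340 kBq, and 2 controls were left in the fit.

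Cdc20, the activator of the anaphase-promoting complex, whose promoter is shown with its CHR, led the mitosis genes at 9 kBq. Its values were −1.67, 0.38, 0.46 and 0.15, and −2.67, −0.44, −1.38 and −2.03 in the controls. Rats 2, 3 and 4 lay above all controls. The log2 ratio was 1.46 ± 0.79 (SE, limma p = 0.0754, exact permutation p = 0.0857).

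Mad2l1, a protein of the spindle checkpoint, led at 340 kBq with −3.35, −4.42, −2.43 and −2.93 against −2.63, 0.21, −3.69 and −2.73 in the controls, with 1 rat below all controls and a log2 ratio of −1.08 ± 0.74 (SE, limma p = 0.157, exact permutation p = 0.371). The highest control was the lymphoid-rich array. Without the lymphoid-rich arrays the log2 ratio was −0.27 ± 0.58 (SE), and with each rat left out in turn it ran from −1.57 to −0.269. Kif2c, a motor that takes microtubules apart, led at 760 kBq with −4.18, −3.13, −3.63 and −5.62 against −6.75, −2.72, −5.94 and −5.89. All 4 of these lay within the range of the controls, of which 2 of 4 were well above background, and the log2 ratio was 1.18 ± 0.99 (SE, limma p = 0.240, exact permutation p = 0.343).

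Tpx2 went its own way. At 88 kBq its values were −0.58, −2.01, 0.10 and −0.25, at 1300 kBq −0.70, −2.09, −0.33 and −1.44, and at 4700 kBq −1.03, −0.85, 0.64 and −3.01. In the controls they were −3.61, −1.02, −4.05 and −4.07, of which the lymphoid-rich rat 2 was high. At 88 kBq 3 of 4 rats lay above all controls, and at 1300 and 4700 kBq 2 of 4 did.

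The log2 ratio of Tpx2 was 2.50 ± 0.76 at 88 kBq (SE, limma p = 0.00274, adjusted p = 0.9999, exact permutation p = 0.0571). It was 2.05 ± 0.76 at 1300 kBq (SE, limma p = 0.0121) and 2.12 ± 0.76 at 4700 kBq (SE, limma p = 0.00945), with an exact permutation p of 0.0857 in both. At 170 kBq it was 1.42 ± 0.76 (SE, exact permutation p = 0.143) and at 260 kBq 0.69 ± 0.76 (SE, exact permutation p = 0.457). It was close to the controls at 760 kBq, −0.10 ± 0.76 (SE), so that the ratios had no order by activity, and the slope with activity was 0.01 ± 0.08 (SE, limma adjusted p = 0.986). Without both kinds of array the log2 ratio at 4700 kBq was 2.78 ± 0.92 (SE, limma adjusted p = 0.967), and without the squamous-rich arrays alone it was 1.84 ± 0.90 (SE) and no longer passed an unadjusted p of 0.05. With the 4 tissue lists as covariates the log2 ratio was 1.09 at 88 kBq, 1.02 at 1300 kBq and 0.94 at 4700 kBq, and none of these passed, while with the slide or the scan day as a block all 3 did. Tpx2 is represented by 1 probe, which was well above background on all 36 arrays.

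**Figure D5:**
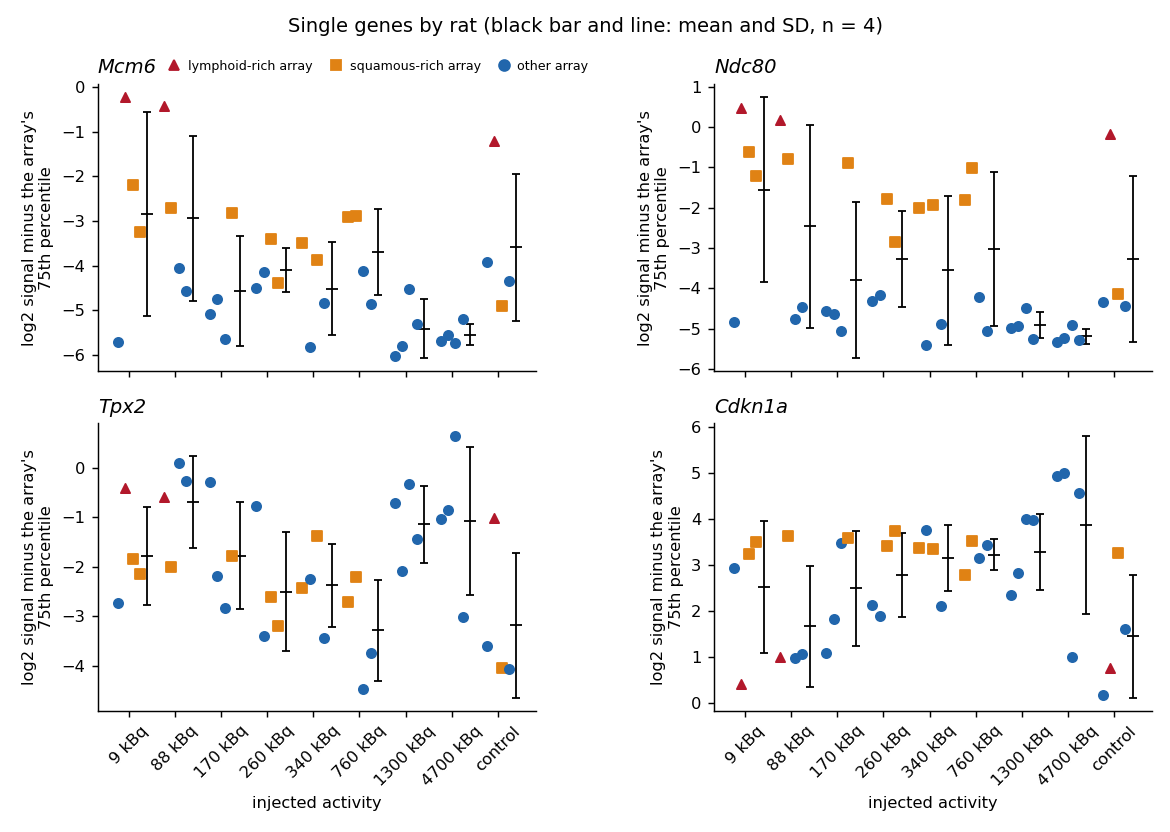
Values of Mcm6, Ndc80, Tpx2 and Cdkn1a in each rat (y axis, log2 signal minus the 75th percentile of the array) by injected activity, with shape and colour for the kind of array and the mean and SD of the 4 rats as a black bar and line. Mcm6 and Ndc80 are highest on lymphoid-rich arrays and at 4700 kBq lie below all 4 controls, while 3 of 4 control values of Tpx2 lie between −4.07 and −3.61 and 3 of 4 values of Cdkn1a at 4700 kBq between 4.55 and 4.99.

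When all irradiated rats were set against the controls, the median log2 ratio was −0.25 for S phase and −0.24 for mitosis, beside 0.13 for all probes. With each rat left out in turn, these medians ran from −0.475 to 0.4 and from −0.55 to 0.624, so a single rat turned their side. By limma 0 members were lower and 1 was higher at an unadjusted p under 0.05, where 0.286% of all probes were lower and 2.98% higher. That gene was Tpx2, at 1.36 ± 0.57 (SE, limma adjusted p = 0.968). The S phase gene with the smallest p was Mcm2, at −0.44 ± 0.36 (SE, limma adjusted p = 0.968).

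Whether the genes changed with activity was asked by the slope over the 8 irradiated groups, in log2 signal per doubling of activity. The median slope was −0.23 for S phase and −0.36 for mitosis, beside 0.01 for all probes. By limma 13 of 14 S phase genes and 24 of 25 mitosis genes fell at an unadjusted p under 0.05, where 5.88% of all probes did, and no member rose, where 3.49% did. The exceptions were Tyms and Tpx2. No adjusted p was under 0.252.

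The smallest p of the S phase genes was that of Ccne2, which had values of −6.69, −2.94, −4.27 and −4.95 at 9 kBq and −7.52, −8.37, −5.46 and −7.04 at 4700 kBq. Its rats at 9 kBq and 4700 kBq overlapped, and the slope was −0.28 ± 0.08 (SE, limma adjusted p = 0.252). Ccne2 was well above background on 23 of 36 arrays, and on 1 of 4 at 1300 and at 4700 kBq, so that the slope rests in part on background signal. The smallest p of the mitosis genes was that of Ndc80, with a slope of −0.40 ± 0.12 (SE, limma adjusted p = 0.277). By role the median slope was −0.45 for the cyclins with Cdk1, −0.37 for the kinetochore, −0.34 for the mitotic kinases, −0.32 for the spindle and cytokinesis and for nucleotide supply, −0.28 for G1/S, −0.25 for the checkpoint, −0.20 for licensing and the fork and −0.19 for Foxm1.

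The number of lymphoid-rich and squamous-rich arrays also fell with activity, from 3 of 4 rats at 9 kBq over 1 or 2 of 4 at 88 to 760 kBq to none at 1300 and 4700 kBq. Within groups, 41 of 54 pairs of rats were in the same order for the squamous markers as for the mitosis genes. For the other marker lists the number was 33 for cartilage, 29 for macrophages, 28 for lymphoid cells, 26 for parathyroid, 24 for follicular cells, 23 for skeletal muscle, 21 for erythroid cells, 20 for C cells, 18 for adipose tissue and 18 for endothelium. Without the lymphoid-rich arrays, 10 S phase and 19 mitosis genes fell, beside 6.21% of all probes. Without the squamous-rich arrays, 9 and 16 did, beside 4.82%. Without both, none did, beside 3.29%, and the median slopes were −0.03 for S phase and 0.02 for mitosis. In the fit without both kinds, 9 kBq was represented by rat 1 alone, so that the lowest activity rested on 1 array. That rat had a mitosis mean of −1.70 and a follicular list mean of −4.81. With both marker lists as covariates in place of leaving arrays out, 5 and 7 members fell, beside 2.85%, with a median slope of −0.10 in each list. With the lymphoid, squamous, follicular and parathyroid lists as covariates, 6 and 13 did, beside 8.03%.

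The follicular markers were treated in the same ways. Without the 13 arrays with low follicular markers the slopes were steeper, −0.41 and −0.48, and 13 S phase and 24 mitosis genes fell, beside 9.5% of all probes. In that fit 9 kBq was represented by the lymphoid-rich rat 2 alone and 340 kBq by rat 4 alone, so that the lowest activity rested on 1 lymphoid-rich array. At 88 kBq rats 1, 3 and 4 were kept, of which rat 1 was lymphoid-rich. With the follicular list as a covariate the slopes were −0.23 and −0.31, and 12 and 23 members fell, beside 8.45%.

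The arrays lay on 5 slides, each with 4 to 6 of the groups, and were scanned on 2 days. With the slide as a block the median slopes were −0.23 for S phase and −0.37 for mitosis, and with the scan day as a block −0.24 and −0.37. Within slides 1, 2, 3 and 5 the slope of the mitosis mean over the irradiated arrays was −0.56, −0.47, −0.35 and −0.35, but within slide 4, which held none of the rats at 1300 or 4700 kBq, it was 0.50. On the scan days it was −0.49 and −0.18. The S phase mean had slopes of −0.41, −0.32, −0.23, 0.23 and −0.19 on slides 1 to 5 and −0.35 and −0.13 on the scan days.

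At 4700 kBq the median log2 ratio was −1.02 for S phase and −1.63 for mitosis with the slide as a block, and −1.02 and −1.73 with the scan day. Controls and rats at 4700 kBq met on slide 1, with 2 of each, where the mitosis means of the rats at 4700 kBq were lower by a mean difference of −0.82, and on slide 5, with 1 of each, where it was −0.83. On the scan days the difference was −1.90 and −0.62, and the lymphoid-rich control was on the first of these days.

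Other genes of the pathway were grouped in 4 lists, none of which shared a gene with the 45. Of 16 other replication genes 15 had a probe. Their median log2 ratio was 0.53 at 9 kBq and −0.56 at 4700 kBq, and 9 of 15 fell with activity at an unadjusted p under 0.05 (0 rose), where 5.88% of all probes fell and 3.49% rose. Of 16 other mitosis genes 11 had a probe, with medians of 1.25 and −0.89 (−1.15 with genes not above background at their bound), and 9 of 11 fell (0 rose) beside the same shares of all probes. These lists went with the 45: within groups, 52 of 54 pairs of rats were in the same order for the other mitosis genes as for the mitosis genes, and 42 of 54 for the other replication genes as for the S phase genes.

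Pcna, the sliding clamp of the polymerases and a usual marker of proliferation, had values of 0.35, 0.60, 0.20 and 0.46 at 4700 kBq against 0.32, 2.11, 0.09 and 0.50 in the controls. The rats at 4700 kBq lay within the range of the controls, and Pcna did not pass an unadjusted p of 0.05 in any comparison, with a slope of −0.08 ± 0.04 (SE, limma adjusted p = 0.567). Orc6, of the complex that marks origins, had the smallest p of its list in the 8 group comparisons, at 9 kBq, with −5.28, −2.91, −3.70 and −4.31 against −5.19, −3.85, −5.78 and −5.60. There 2 of 4 rats lay above all controls, and the log2 ratio was 1.05 ± 0.40 (SE, limma p = 0.0145, exact permutation p = 0.171), with 3 of 4 controls well above background. Smc2, of the condensin that compacts chromosomes, had the smallest p of the other mitosis genes in the group comparisons, also at 9 kBq, with −6.66, −5.37, −6.14 and −6.04 against −7.60, −6.19, −7.42 and −7.14, 3 of 4 rats above all controls, and a log2 ratio of 1.03 ± 0.41 (SE, limma p = 0.0182, exact permutation p = 0.0571). Smc2 was well above background on 16 of 36 arrays, 1 of 4 controls and 3 of 4 rats at 9 kBq, so that this ratio is set against a group mostly at background.

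Lists of cell cycle control were read in the same way, and their difference from the other lists was not tested. Of the E2F, Rb and cyclin D genes, which decide on entry into S phase, 11 of 13 had a probe, with medians of 0.14 at 9 kBq, −0.53 at 1300 kBq and 0.08 at 4700 kBq. With activity 1 of 11 fell, Cdk6, the partner of cyclin D, and 0 rose, beside 5.88% and 3.49% of all probes. E2f7, a repressor among the E2F factors, had the smallest p of the list in the group comparisons, at 1300 kBq, with −3.76, −3.85, −5.45 and −5.02 against −6.16, −5.20, −4.59 and −5.36, 2 of 4 rats above all controls, and a log2 ratio of 0.81 ± 0.38 (SE, limma p = 0.0425, exact permutation p = 0.200). The 11 cell cycle inhibitors, all with a probe, had medians of 0.13 at 9 kBq, 0.00 at 1300 kBq and −0.19 at 4700 kBq. With activity 2 fell, Cdkn2c and Cdkn2d, which block Cdk4 and Cdk6, and 1 rose, beside the same 5.88% and 3.49% of all probes.

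The one that rose was Cdkn1a, p21, the inhibitor of cyclin-dependent kinases that p53 switches on after DNA damage. Its values were 4.92, 4.99, 0.99 and 4.55 at 4700 kBq and 0.18, 0.76, 3.25 and 1.61 in the controls. At 4700 kBq 3 of 4 rats lay above all controls and rat 3 lay among them. The log2 ratio was 2.41 ± 0.82 (SE, limma p = 0.00628, adjusted p = 0.9999), and an exact permutation test gave 0.0857.

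At 340, 760 and 1300 kBq the log2 ratio of Cdkn1a was 1.69, 1.77 and 1.83 (SE 0.82 each, exact permutation p = 0.0571, 0.0857 and 0.0857), each past an unadjusted p of 0.05 by limma, and the slope was 0.19 ± 0.08 per doubling (SE, limma adjusted p = 0.467). Of all probes, 13.2% passed as higher at 340 kBq, 1.5% at 760 kBq, 3.84% at 1300 kBq and 1.28% at 4700 kBq. With the mean of the Cdkn1a probes in place of the brightest, the log2 ratio at 4700 kBq was 1.33. Without both kinds of array it was 2.97. The mitosis mean of rat 3 at 4700 kBq, the one with low Cdkn1a, was −1.41 and lay between those of the other 3 rats. Its follicular list mean was −2.66, against 2.91, 3.59 and 3.14 in rats 1, 2 and 4. Its erythroid list mean was 2.20, against 0.38, 0.59 and 0.62. The part of these tissues in its Cdkn1a value was not tested.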

How the data were processed

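Total RNA of rat thyroid was hybridised to 1-colour Agilent arrays, 1 per rat, which the authors scanned and read with Feature Extraction 10.7.3.1. The deposited scanner files give each spot's processed signal as a background-subtracted intensity. The authors' matrix, with a median of 205.734 in a column, holds the same arrays as intensity on a linear scale (lowest correlation with the scanner values 0.992), and it was used as an alternative. The labels name Partek in the submitters' processing notes, without a version. No column lacked a sample.

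From these intensities, log2 of the processed signal minus the 75th percentile of the array was computed. Control spots and outlier spots (331 to 1365 per array) were left out and spots of a probe were averaged. Arrays had 62976 spots, a 75th percentile of 1564 to 4288, 62.6% to 91.0% of probes well above background and 0 saturated spots. Their number, 4 per group, limits the precision. Pairs of arrays correlated at 0.865 to 0.991 over all probes.

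Genes were named through RefSeq accessions. Limma 3.58.1 in R 4.3.3 was fitted to all 36 arrays with 1 mean per group. Contrasts were each group against the controls, all irradiated against controls, and the slope on log2 activity over the 8 irradiated groups. P-values were adjusted by Benjamini-Hochberg over all probes. Regulated meant an adjusted p under 0.01 with a fold change of at least 1.5, the limits of the study's methods. Single genes were also tested by a two-sided exact permutation test of 4 against 4 rats (70 splits). Lists were described without a test.

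Named with values were the S phase and the mitosis gene with the smallest p of each comparison, the usual proliferation markers, Cdkn1a, and the gene of each other pathway list with the smallest p in the 8 group comparisons. Cdc6, Cenpa, Cdk1, Ccnb2, Foxm1, Rrm2, Tyms, Cdkn2c, Cdkn2d, Cdk6 and genes named in counts were chosen after their values were seen. The genes and lists were chosen with earlier results of these data known. Alternatives covered scaling, background, the authors' matrix, dim probes, slide, scan day, rat number, array weights, variance model, probe choice, tissue markers, arrays in the fit and each rat left out. Normexp used median spot and background signals. The fit was tested on simulated data. In all, 11 marker lists were read.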

Additional observations from a re-analysis of the deposited data

Results flagged for a closer look

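A rat that lay far from the other 3 of its group was found in 6 of 60 groups of values checked. For independent values chance gives about 1 in 20. These values share rats and genes that vary together, so that rate cannot be set against them. In the controls rat 2, the lymphoid-rich array, was the one that lay apart, with an S phase mean of 2.16 and a mitosis mean of 2.64, a Cdt1 value of −4.26 and a Tpx2 value of −1.02, each above the other 3 controls. At 9 kBq rat 1, which was of neither the lymphoid-rich nor the squamous-rich kind, had a Cdc20 value of −1.67, below the other 3 rats. At 4700 kBq rat 3 had a Cdkn1a value of 0.99, below the other 3 rats.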

How the results depend on the processing

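No member was regulated under any of 58 alternatives. Of 1778 values of the comparisons under alternatives, 106 moved by more than the spread between rats or by over 1.5 times for counts. They are given below by setting, as numbers of members at an unadjusted p under 0.05 unless a median is named. The cause of these moves was not tested. The values without the lymphoid-rich or squamous-rich arrays, or with their lists as covariates, and the bounds of Cdc6 and Cenpa without a control, were chosen after seeing the data. With array weights, whose iteration stopped before its tolerance was reached, 21 were higher at 9 kBq (19.4% of all probes), 1 higher at 170 kBq (5.25%), 1 lower at 340 kBq (9.66%), 4 higher at 760 kBq (13.5%), 3 lower at 1300 kBq (0.701%) and 11 lower at 4700 kBq (1.83%), and the log2 ratio of E2f1 at 760 kBq turned from −0.57 to 0.0774. With array weights 2 named values came to pass an adjusted p of 0.01 by limma, the slope of Ccne2 at −0.26 and the log2 ratio of Cdkn1a at 4700 kBq at 3.63. The share of all probes that passed this limit is not given here, so the 2 are not read as results about these genes. At an unadjusted p under 0.05 the weighted fit called 19.4% of all probes higher at 9 kBq, against 2.77% without weights. The medians at 88 kBq turned to −0.0995 for S phase and −0.0612 for mitosis with these weights, though by less than the spread between rats. In the authors' matrix 1 was lower at 1300 kBq (0.869% of all probes). With normexp 1 was lower at 1300 kBq (0.194%) and 0 at 4700 kBq (0.188%), and with quantile normalization 2 were lower at 1300 kBq (0.853%). With the mean of the probes of a gene 1 was higher at 9 kBq (2.77%) and 2 at 88 kBq (2.99%). With only the 2 groups compared in the fit, 1 was higher at 9 kBq (2.22% of all probes), 7 lower at 1300 kBq (0.316%) and 14 lower at 4700 kBq (0.715%). With the scan day as a block 1 was higher at 9 kBq (2.39%), 1 lower at 1300 kBq (0.323%) and 0 lower at 4700 kBq (0.402%). With the slide as a block 0 were lower at 4700 kBq (0.369%).

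Without the arrays low in follicular markers, the S phase slope was −0.41, and 8 were lower at 170 kBq (0.998% of all probes), 0 higher at 1300 kBq (1.6%), 0 higher (6.14%) and 9 lower (0.734%) at 4700 kBq, and 0 higher in all irradiated rats (10.2%). At 9 kBq that fit held 1 rat, the lymphoid-rich rat 2, assumed to vary like the rats of other groups, so that the S phase median of 2.45 and the 7 higher (6.75%) are those of this array. With 4 tissue lists as covariates 14 were higher at 9 kBq (8.24% of all probes), 18 at 88 kBq (7.55%), 8 at 170 kBq (3.73%), 2 at 340 kBq (3238 of 30367 probes), 2 at 760 kBq (3.44%), 0 at 1300 kBq (2.2%) and 4 in all irradiated rats (4.85%), 0 were lower at 4700 kBq (1.54%) and 19 fell with activity (8.03%). In that fit the S phase median at 170 kBq was 0.67, those at 4700 kBq were 0.13 for S phase and 0.46 for mitosis, the slopes were −0.0799 for S phase, −0.098 for mitosis and 0.012 for their difference, and the log2 ratio of Mcm2 turned from −0.66 to 0.29 at 170 kBq and from −0.44 to 0.18 in all irradiated rats. The mitosis median at 170 kBq also turned, from −0.635 to 0.914, though by less than the spread between rats.

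With the lymphoid list as a covariate 2 were higher at 9 kBq (3.47% of all probes), 1 at 170 kBq (2.04%) and 1 at 760 kBq (1.41%), and 0 lower at 4700 kBq (0.474%). With the squamous list 2 were lower at 1300 kBq (0.754%) and 0 at 4700 kBq (0.58%). With both lists 1 was higher at 9 (3.58%), 1 at 170 (3.21%) and 1 at 760 kBq (1.74%). In the same fit 2 were lower at 1300 kBq (1.2%), 0 were lower at 4700 kBq (0.734%) and 12 fell with activity (2.85%). The mitosis median at 4700 kBq was −0.0886, and the slopes were −0.0974 for S phase, −0.10 for mitosis and 0.0077 for their difference, which was 0.09 with all arrays and no covariate. Without the lymphoid-rich arrays 1 was higher at 9 (2.92%), 1 at 170 (1.53%) and 1 at 760 kBq (1.05%), and 0 lower at 4700 kBq (0.504%). Without the squamous-rich arrays the mitosis median at 340 kBq was −2.12 and S phase minus mitosis 0.67, and the medians at 760 kBq were −1.30 for S phase and −1.26 for mitosis. In that fit 2 were lower at 340 kBq (0.181%), 3 at 1300 kBq (0.833%) and 2 at 4700 kBq (0.422%). Higher were 0 at 1300 kBq (7.76%), 0 at 4700 kBq (2.17%) and 0 in all irradiated rats (3.92%). Without both kinds the medians at 9 kBq were −0.32 for S phase and −1.0 for mitosis, and S phase minus mitosis was 0.40 (−0.47 with all arrays). In that fit 5 were lower at 170 kBq, 9 at 340 kBq, 2 at 760 kBq, 4 at 1300 kBq, 7 at 4700 kBq and 3 in all irradiated rats, 1 was higher at 170 kBq, and 0 fell with activity. The count at 9 kBq, where 1 rat was left, also moved and is left out. The slopes without both kinds were −0.0292 for S phase, 0.0161 for mitosis and −0.0321 for their difference.

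For the counts above without both kinds of array, 0.362% to 3.29% of all probes were called in the same fit and direction. With each rat left out in turn, 0 to 24 were higher at 9 kBq (24 without 9 kBq rat 1, beside 5.36% of all probes, and 13 without control rat 2, beside 3.29%), 0 to 1 higher at 170 kBq, 0 to 1 lower at 340 kBq, 0 to 1 higher at 760 kBq, 0 to 6 lower at 1300 kBq (6 without control rat 3, beside 1.06%), 0 to 2 lower at 4700 kBq and 0 to 1 higher in all irradiated rats (0 without control rat 1, 3 or 4), and 30 to 37 fell with activity. With all rats in the fit, 2.16% of all probes were higher at 170 kBq, 0.438% lower at 340 kBq and 1.5% higher at 760 kBq. Lower were 0.339% at 1300 kBq and 0.372% at 4700 kBq, while 2.98% were higher in all irradiated rats and 5.88% fell with activity. With each rat left out, the mitosis median at 4700 kBq was −2.12 to −0.94 and the S phase median −1.46 to −0.49, both nearest 0 without control rat 2. Rat numbers do not pair the rats: their deviations correlated over 0.1 in 57 of 144 pairs of the same number, with a median of −0.03. With rat number as a replicate block no call changed, and the log2 ratio of Mcm6 at 4700 kBq stayed at −1.95. Signal over background limited several named genes, with Smc2 well above background on 16 of 36 arrays, Cenpa on 17, Cdc6 on 21, Ccne2 on 23, Kif2c on 26, Kif11 and Cdca8 on 29, Ttk, Ccnb2 and Cdt1 on 31, and Ccna2 and Orc6 on 34.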

Other observations

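Other genes of the pathway lists passed an unadjusted p of 0.05 in single comparisons and are given here after their values were seen, beside the share of all probes that passed in the same direction. Gins1, of the helicase complex, had a log2 ratio of −1.33 at 1300 kBq (0.339% of all probes lower) and −1.19 at 4700 kBq (0.372%). Chaf1b, which places histones on new DNA, had −1.83 at 1300 kBq. Cdca8, of the chromosomal passenger complex, had 1.87 at 9 kBq (2.77% higher), with 3 of 4 controls well above background. Smc2 had 0.86 at 88 kBq (2.99% higher), with 1 of 4 controls well above background. Hmmr, a spindle protein, passed as higher at 88 and 340 kBq, but it was well above background on 1 of 36 arrays and its values are left out. Wee1, the kinase that holds Cdk1 inactive, had −1.16 at 340 kBq (0.438% lower) and −1.06 at 1300 kBq. At 4700 kBq all 4 rats lay below all 4 controls for Cep55 and Racgap1, which act in cytokinesis, and for the inhibitor Cdkn2c, where 0.552% of all probes did.

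A second probe was present for 11 members. Over the 36 arrays it correlated with the probe used at 0.81 to 0.99 in 10 of them and at 0.416 for Mcm4, a subunit of the helicase, so that the values of Mcm4 depend on the probe.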
